A study of Homo sapiens with 66 samples.

Results

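The genes described here are 46 components and regulators of the machinery that moves chromosomes in mitosis: the centromere and kinetochore, the spindle assembly checkpoint, the mitotic kinases and kinesins, CDK1 with its cyclins, and the proteins that start anaphase. They were listed by name and function, with no threshold on their values, but with earlier results of these data known. All 46 were found among the 20167 genes of the count table. In AMO1 myeloma cells treated for 24 h, the prolyl-tRNA synthetase inhibitor NCP26 lowered 42 of the 46 transcripts and the proline-competitive inhibitor halofuginone (HFG) lowered 36, where 30.9% and 30.5% of all genes tested were lower. At 6 h the group was divided: most transcripts of kinases, cyclins and checkpoint proteins were already lower, while those of most structural kinetochore proteins were not. With each inhibitor 4 of the 46 were higher at 6 h, a smaller share than over all genes (18.1% with NCP26 and 27.7% with HFG). In carfilzomib-resistant L363 cells (L363-CFZr) NCP26 lowered 24 of the 45 genes tested at 24 h (4.38% of all genes), a count that ran from 1 to 38 when 1 library was left out. At 6 h it lowered 2 and raised 4 of 46 (8.99% and 9.81% of all genes), and 0 to 12 were called when 1 library was left out. The related compounds NCP22 and halofuginol lowered 0 to 3 of the 46 at either time in either line, where 0% to 12.2% of all genes were lower. They also raised some of the 46 at 6 h, most of them with halofuginol in L363-CFZr, where 13.6% of all genes were higher.

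Each chromosome carries a centromere marked by the histone variant CENPA, on which the constitutive centromere-associated network (CCAN) and then the KNL1, MIS12 and NDC80 complexes are built, and the NDC80 complex holds the ends of microtubules. As long as a kinetochore has no attachment, the kinases TTK and BUB1 and the proteins BUB1B, BUB3 and MAD2L1 hold CDC20 back from the anaphase-promoting complex (APC/C). Once CDC20 is free, the APC/C marks securin (PTTG1) and cyclin B for destruction, separase (ESPL1) cuts cohesin, and the sister chromatids part. PLK1, AURKA and AURKB drive centrosome maturation, spindle assembly and correction of wrong attachments, and CDK1 bound to cyclins A and B starts mitosis. Most of these genes are transcribed late in the cell cycle, and their mRNA is abundant in proliferating cells such as myeloma lines and low in resting plasma cells.

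AMO1 and L363 are established human plasma cell lines, and the L363-CFZr cells are a derivative resistant to the proteasome inhibitor carfilzomib (CFZ). Cells received DMSO (the solvent), NCP26, NCP22, HFG or halofuginol (the compounds at 1 µM) for 6 h or 24 h, and AMO1 also received CFZ, which gave 22 groups of 3 libraries and 66 libraries in all. NCP26 binds the ATP site of prolyl-tRNA synthetase, HFG binds it in competition with proline, NCP22 is an earlier compound of the NCP26 series and halofuginol (MAZ1805) is an analogue of HFG. The study states in general that triplicates were biological, and the labels give triplicates without saying that they were separate cultures. The p-values measure the spread between the 3 libraries of a group, which may in part be technical.

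Each AMO1 library held 1666325 to 5761682 counts and each L363-CFZr library 2487872 to 6596543, and the lowest count of any of the 46 genes in any library was 7. 10 of the 46 transcripts share over 10% of their 31-mers with another gene, so that kallisto may have divided their reads: CENPN, CENPU, SPC24, SPC25, PMF1, SKA1, PLK1, AURKA, CDC20 and SGO1. Levels are given as CPM, that is, counts scaled so that all libraries have the same normalised total. All 10 plasma cell markers examined were detected in every library, the lowest at 17.8 CPM (CD38 in L363-CFZr), whereas the B, T, NK and myeloid cell markers had medians of at most 1.58 CPM. Of 3 stromal markers, COL1A1 and COL1A2 had medians of at most 1.92 CPM, and VIM (vimentin), which blood cells also express, had medians of 2512 CPM in AMO1 and 3483 CPM in L363-CFZr. Numbers in the library names put the libraries in 3 sets of 22. The AMO1 DMSO libraries of 24 h were in another set than the other AMO1 libraries of 24 h, apart from CFZ replicate 1, and the L363-CFZr HFG and halofuginol libraries of 6 h were in another set than their DMSO libraries, so that set and treatment cannot be told apart in those comparisons. Both lines were also handled differently at the 2 times, since the lysates of 6 h were frozen overnight. Replicate 2 stood apart from the other 2 libraries of its group in L363-CFZr DMSO at 24 h, AMO1 CFZ at 24 h and L363-CFZr NCP26 at 6 h, and counts that these libraries moved by over 1.5 times are given with and without them.

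Promoters of late cell cycle genes often carry a cell cycle genes homology region (CHR, here the letters TTTGAA) and one or more CCAAT boxes. RefSeq promoters (GRCh38.p14, 250 bases before to 50 after the start) were found for 38 of the 46 genes. TTTGAA on either strand stood in 21 of the 38 (55.3%), against 15.4% of the 27305 promoters of all genes, and CCAAT on either strand in 28 (73.7%), against 35.7%. 2 or more CCAAT stood in 16 of the 38, against 11.3% of all promoters. 16 promoters had both motifs, 5 TTTGAA alone, 12 CCAAT alone and 5 neither. The 150 bases before the start are shown for 6 genes that the results below turn on, 3 with both motifs (PLK1, CDC20, CENPA) and 3 with CCAAT pairs and no TTTGAA (CCNB1, BUB1, PTTG1). Capitals mark matches to TTTGAA and to CCAAT, or on the other strand to TTCAAA and to ATTGG, and each line runs 5′ to 3′ on the strand of the gene.
PLK1: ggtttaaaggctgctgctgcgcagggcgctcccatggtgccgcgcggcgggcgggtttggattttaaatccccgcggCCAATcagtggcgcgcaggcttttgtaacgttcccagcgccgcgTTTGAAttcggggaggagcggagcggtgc
CDC20: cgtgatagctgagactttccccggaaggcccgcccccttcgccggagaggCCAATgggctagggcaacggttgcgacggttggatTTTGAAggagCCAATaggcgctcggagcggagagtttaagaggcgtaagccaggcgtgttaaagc
CENPA: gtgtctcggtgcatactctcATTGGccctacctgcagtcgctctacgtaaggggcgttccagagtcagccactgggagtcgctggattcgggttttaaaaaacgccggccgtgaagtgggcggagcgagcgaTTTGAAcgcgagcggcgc
CCNB1: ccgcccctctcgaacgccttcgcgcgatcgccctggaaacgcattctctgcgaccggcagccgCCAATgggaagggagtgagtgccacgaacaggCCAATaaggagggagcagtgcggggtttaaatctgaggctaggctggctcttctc
BUB1: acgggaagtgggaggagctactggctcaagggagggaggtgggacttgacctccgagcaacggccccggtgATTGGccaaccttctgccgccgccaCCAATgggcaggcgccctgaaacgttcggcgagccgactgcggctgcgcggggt
PTTG1: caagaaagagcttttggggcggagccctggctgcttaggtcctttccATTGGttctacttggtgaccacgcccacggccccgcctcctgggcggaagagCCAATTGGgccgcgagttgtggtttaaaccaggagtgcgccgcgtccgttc
These stretches are chr16:23678739-23678888 (plus strand), chr1:43358831-43358980 (plus strand), chr2:26785906-26786055 (plus strand), chr5:69167000-69167149 (plus strand), chr2:110678064-110678213 (minus strand) and chr5:160421705-160421854 (plus strand). In PTTG1 a CCAAT and an ATTGG overlap in 1 run of capitals. A match is a description of the letters in this window and not a shown binding site. Only the spelling TTTGAA was searched for the CHR, so a promoter without it is not shown to lack a CHR.

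In untreated cells the 46 transcripts differed widely in level. Per kilobase of the canonical transcript, DMSO-treated AMO1 cells at 24 h held most of PTTG1 (71.8 CPM per kb), CCNB1 (50.03) and BUB1 (46.1), and least of NSL1 (0.967), a MIS12 complex subunit, and CENPI (2.06), a CCAN subunit. The summed level of the 46 was 2419, 2452 and 2473 CPM in the 3 AMO1 DMSO libraries of 6 h and 2570, 2560 and 2660 CPM in those of 24 h. In L363-CFZr it was 1989, 2025 and 1947 CPM at 6 h and 2252, 1968 and 2373 CPM at 24 h, where replicate 2 lay below the others. TTK stood at 3.16 CPM per kb in L363-CFZr DMSO cells at 24 h against 12.9 in AMO1, and AURKB at 11.6 against 41.2. The DMSO libraries of AMO1 and L363-CFZr belong to different sets, so that line and set cannot be told apart here.

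**Figure D1:**
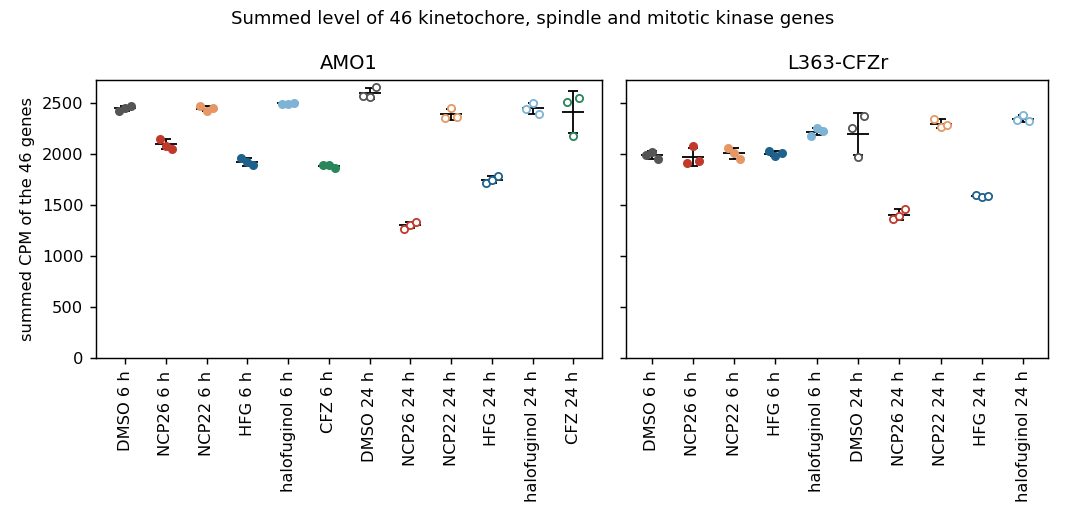
Summed CPM of the 46 genes in each library (points; filled at 6 h, open at 24 h), with the mean and SD of each group of 3 (black), for AMO1 and L363-CFZr. NCP26 and HFG at 24 h lie below every DMSO library of their line and time, and in AMO1 NCP26, HFG and CFZ are also below DMSO at 6 h.

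The first comparison asked what 24 h of NCP26 or HFG did to these genes in AMO1 cells. The summed level was 1269, 1304 and 1335 CPM with NCP26 and 1713, 1746 and 1784 CPM with HFG, all below the 3 DMSO libraries. With NCP26, 42 of 46 genes were lower and 2 higher by edgeR's quasi-likelihood test at an adjusted p under 0.05, with a median log2 fold change of -1.13 against 0.0075 over all 10787 genes tested, of which 30.9% were lower and 29.8% higher. With HFG, 36 were lower and 3 higher, with a median of -0.79 against -0.0019, and 30.5% of all 10723 genes were lower and 28.5% higher. In bulk RNA, fewer cells in G2 and mitosis and less of these mRNAs per cell cannot be told apart. Against NCP22 and halofuginol, whose libraries of 24 h belong to the same set as those of NCP26 and HFG, the counts were 42 lower and 1 higher for NCP26 (background 25.7% and 26.3%) and 33 lower and 3 higher for HFG (28.7% and 27.9%). So the genes were lower within a set too. With a term for the set in a fit of all AMO1 groups, the counts against DMSO were 32 lower and 1 higher for NCP26 and 27 and 3 for HFG. This term rests on CFZ at 24 h alone, the only AMO1 group with libraries in both sets, of which replicate 2 stood apart. How well it corrects for the set was not tested. Values written with ± are log2 fold changes with their standard error (SE).

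CDK1 and its cyclins fell with both inhibitors, all 4 of 4 genes. CCNB1 (cyclin B1; chr5:69167135-69178245, plus strand in GRCh38) stood at 101, 94.97 and 109 CPM in the DMSO libraries of 24 h, at 24.7, 24.1 and 25.2 CPM with NCP26 and at 52.9, 57.95 and 55.05 CPM with HFG. The 3 groups did not overlap, and NCP26 left the lowest level. The log2 fold change was -2.05 ± 0.096 (adjusted p = 9.7e-18) with NCP26 and -0.88 ± 0.086 (adjusted p = 7.5e-08) with HFG. CDK1, the kinase that cyclin B activates, stood at 67.9, 72.8 and 74.2 CPM with DMSO, 31.3, 30.3 and 27.9 CPM with NCP26 and 32.7, 34.8 and 37.8 CPM with HFG, and its log2 fold changes of -1.27 ± 0.096 and -1.02 ± 0.098 were nearer to each other. CCNA2 (cyclin A2) changed by -1.56 ± 0.094 and -1.10 ± 0.11, and CCNB2 (cyclin B2) by -1.31 ± 0.11 and -0.93 ± 0.10.

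The genes of anaphase entry included the largest fall of all 46. PTTG1 (securin; chr5:160421855-160428739, plus strand) stood at 46.2, 50.6 and 57.1 CPM with DMSO, 13.2, 12.1 and 8.50 CPM with NCP26 and 20.3, 29.4 and 32.8 CPM with HFG, without overlap. Its log2 fold change was -2.22 ± 0.14 (adjusted p = 2.8e-14) with NCP26 and -0.87 ± 0.13 (adjusted p = 2.1e-05) with HFG. CDC20, the APC/C activator, stood at 48.4, 36.6 and 47.3 CPM with DMSO, 15.03, 18.9 and 18.5 CPM with NCP26 and 29.9, 26.9 and 28.5 CPM with HFG, a change of -1.33 ± 0.14 and -0.63 ± 0.13 on the log2 scale, but 20.59% of its 31-mers are shared, mostly with the pseudogene CDC20P1. Separase (ESPL1) fell by a similar amount with both (-0.89 ± 0.11 and -1.06 ± 0.11). SGO1, which protects centromeric cohesin, fell with NCP26 (-0.70 ± 0.15, adjusted p = 0.000175), while its change with HFG was -0.24 ± 0.15 (adjusted p = 0.168).

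All 7 kinase and chromosomal passenger genes fell with both inhibitors. PLK1 stood at 48.8, 53.2 and 56.9 CPM with DMSO, 22.2, 19.2 and 25.2 CPM with NCP26 and 30.97, 37.3 and 43.4 CPM with HFG. Its log2 fold change was -1.27 ± 0.12 (adjusted p = 6.9e-11) with NCP26 and -0.49 ± 0.12 (adjusted p = 0.00126) with HFG. AURKB, the kinase of the chromosomal passenger complex, showed the other order, with 45.1, 52.7 and 55.7 CPM with DMSO, 25.98, 34.9 and 28.8 CPM with NCP26 and 20.3, 22.4 and 18.6 CPM with HFG, and log2 fold changes of -0.80 ± 0.11 and -1.35 ± 0.13. INCENP, its scaffold, fell by about the same with both (-1.29 ± 0.11 and -1.37 ± 0.13), with 56.7 to 68.8 CPM in DMSO, 25.4 to 27.1 CPM in NCP26 and 21.2 to 29.3 CPM in HFG libraries. BIRC5 (survivin), a passenger subunit, stood at 46.6, 52.5 and 51.1 CPM with DMSO, 22.5, 22.5 and 24.3 CPM with NCP26 and 27.6, 27.7 and 30.5 CPM with HFG, and AURKA, the centrosomal kinase, at 61.6, 64.5 and 68.96 CPM with DMSO, 27.9, 24.5 and 30.97 CPM with NCP26 and 32.7, 25.2 and 35.5 CPM with HFG. TPX2, which activates AURKA on the spindle, fell by 1.78 on the log2 scale with NCP26 and by 0.92 with HFG.

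Of the 5 checkpoint genes, 5 were lower with NCP26, and with HFG 3 were lower and 1 higher. TTK (MPS1, the kinase that starts the checkpoint; chr6:80003887-80042527, plus strand) stood at 38.1, 38.98 and 37.7 CPM with DMSO, 11.6, 10.1 and 11.2 CPM with NCP26 and 7.32, 13.2 and 13.3 CPM with HFG, and had the largest fall with HFG, at -1.70 ± 0.16 (adjusted p = 5.4e-08). BUB1 stood at 175, 175 and 170.2 CPM with DMSO, 67, 70.8 and 74.99 CPM with NCP26 and 82.8, 93.1 and 91.2 CPM with HFG. MAD2L1 fell with both (-1.15 ± 0.11 and -1.09 ± 0.10). BUB1B fell with NCP26 (-1.13 ± 0.10, adjusted p = 5.1e-11), and its change with HFG was -0.12 ± 0.097 (adjusted p = 0.304). BUB3, which carries BUB1 and BUB1B to the kinetochore, fell with NCP26 (-0.35 ± 0.059, adjusted p = 6.5e-06) and rose with HFG (0.55 ± 0.053, adjusted p = 5.8e-08), from 229.6, 219 and 220.3 CPM with DMSO to 327, 322 and 330.3 CPM with HFG, against 160.3, 178 and 186 CPM with NCP26.

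All 5 kinesins fell with both. KIF20A, a kinesin of the central spindle (chr5:138178719-138187723, plus strand), stood at 42.9, 39.7 and 44.5 CPM with DMSO, 11.3, 9.13 and 11.8 CPM with NCP26 and 15.8, 21.9 and 28.2 CPM with HFG, a log2 fold change of -1.98 ± 0.14 (adjusted p = 3.6e-13) with NCP26 and -0.89 ± 0.15 (adjusted p = 4.2e-05) with HFG. KIF23, another kinesin of cytokinesis, fell by 1.27 and 1.13, and KIF11, the motor that separates the spindle poles, by 0.77 and 0.77. KIF2C, which takes wrong attachments apart, fell by 1.12 and 0.71, and KIF18A by 1.04 and 0.52, all on the log2 scale.

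The structural kinetochore genes fell less uniformly. In the CCAN list, 7 of 8 were lower with NCP26 (median -0.67) and 6 of 8 with HFG (-0.46), and in the list of the KNL1, MIS12 and NDC80 complexes 6 of 9 and 5 of 9 were lower and 2 higher. CENPA stood at 18.3, 16.3 and 21.2 CPM with DMSO, 7.51, 7.17 and 9.41 CPM with NCP26 and 8.45, 15.3 and 18.6 CPM with HFG, where HFG replicate 1 lay among the NCP26 values and replicate 3 within the DMSO values. Its log2 fold change was -1.22 ± 0.19 (adjusted p = 2.3e-06) with NCP26 and -0.34 ± 0.21 (adjusted p = 0.169) with HFG. NDC80 stood at 51.4, 55.8 and 54.9 CPM with DMSO, 37.9, 27.1 and 33.7 CPM with NCP26 and 36.04, 34.4 and 33.2 CPM with HFG, and fell by a similar amount with both (-0.72 ± 0.11 and -0.66 ± 0.10). The 4 attachment and corona genes were all lower with NCP26, led by the kinetochore kinesin CENPE at -1.47 ± 0.10 (adjusted p = 2.5e-13). Both members that rose against DMSO with NCP26 belong to the MIS12 complex. NSL1 rose to 22.5, 18.6 and 16.7 CPM with NCP26 and 29.9, 29.8 and 30.2 CPM with HFG from 11.4, 12.1 and 14.6 CPM with DMSO, a log2 fold change of 0.57 ± 0.17 (adjusted p = 0.00475) and 1.21 ± 0.15 (adjusted p = 1.9e-06). PMF1 rose by 0.47 and 0.63, though 26.1% of its 31-mers are shared, mostly with the read-through gene PMF1-BGLAP. Within the set, against NCP22, PMF1 was the 1 gene called higher with NCP26 (0.45 ± 0.12), and NSL1 was not called. Against halofuginol, NSL1 was called higher with HFG (1.22 ± 0.18), as were PMF1 and BUB3. The other subunits of the MIS12 complex did not pass the test against DMSO. MIS12 itself, which is not one of the 46, changed by 0.027 ± 0.11 (adjusted p = 0.848) with NCP26 and -0.23 ± 0.12 (adjusted p = 0.107) with HFG, and DSN1 by -0.14 ± 0.13 (adjusted p = 0.381) with NCP26 and -0.22 ± 0.14 (adjusted p = 0.196) with HFG.

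**Figure D2:**
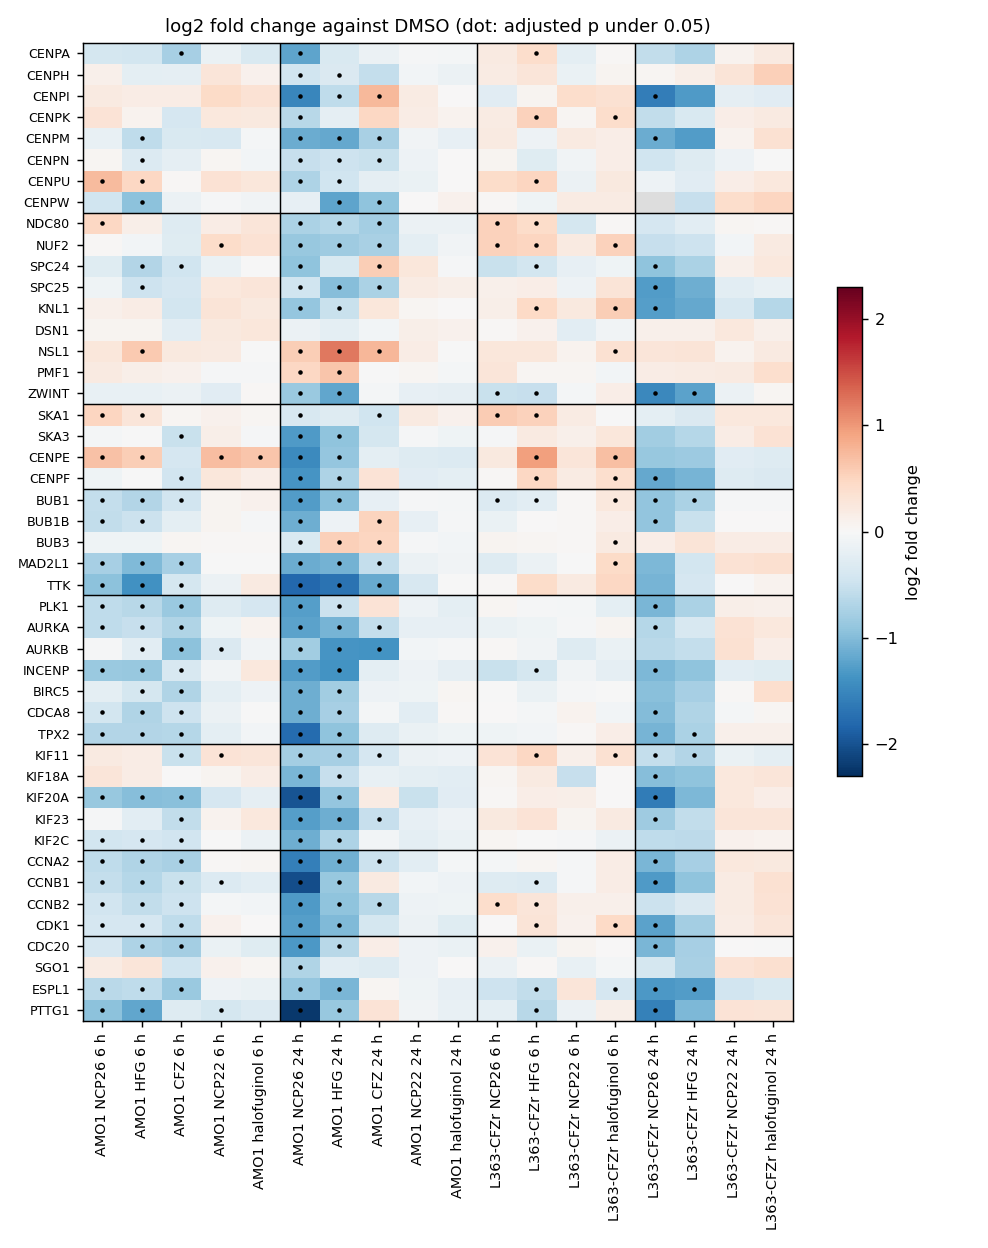
log2 fold change against DMSO of the 46 genes (rows, grouped by role, top to bottom CCAN, outer kinetochore, attachment and corona, checkpoint, kinases and passenger complex, kinesins, CDK1 and cyclins, anaphase entry) in the 18 comparisons (columns); blue is lower, red higher, grey not tested, and a dot marks an adjusted p under 0.05. The NCP26 and HFG columns of 24 h are mostly blue in both lines, the NCP22 and halofuginol columns of 24 h hold no dot, and NSL1 and PMF1 are red in AMO1.

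At 6 h the same inhibitors divided the genes largely by role. With NCP26, 17 of 46 were lower and 4 higher (median -0.17; 19.2% of all genes lower and 18.1% higher), and with HFG 25 lower and 4 higher (median -0.39; 26.6% and 27.7%). All AMO1 libraries of 6 h belong to 1 set. With NCP26, 4 of 5 checkpoint genes, 5 of 7 kinase and passenger genes and 4 of 4 of CDK1 and the cyclins were lower, whereas in the lists of CCAN, outer kinetochore and attachment genes 0 of 8, 0 of 9 and 0 of 4 were lower and 1, 1 and 2 were higher. With HFG the same lists held 4 of 5, 7 of 7 and 4 of 4 lower, and 3 of 8, 2 of 9 and 0 of 4.

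TTK had the largest fall at 6 h with both inhibitors. It stood at 30.1, 35 and 31.2 CPM with DMSO, 14.9, 17.9 and 16.6 CPM with NCP26 and 11.5, 12.8 and 11.6 CPM with HFG, a log2 fold change of -0.95 ± 0.15 (adjusted p = 0.000425) and -1.39 ± 0.14 (adjusted p = 1.1e-06). PTTG1 stood at 47.9, 51.1 and 44.6 CPM with DMSO, 30.6, 23.5 and 21.1 CPM with NCP26 and 15.3, 24.3 and 20.2 CPM with HFG, a change of -0.94 ± 0.15 and -1.20 ± 0.14. MAD2L1 stood at 72.1 to 81.9 CPM with DMSO, 42.6 to 48.5 CPM with NCP26 and 36.1 to 39.1 CPM with HFG, and KIF20A at 32.1 to 38.6 CPM with DMSO, 17.9 to 19.2 CPM with NCP26 and 15.8 to 17.7 CPM with HFG. None of these groups overlapped with DMSO. CCNB1 stood at 86.6, 93.1 and 82.2 CPM with DMSO, 68.2, 55.6 and 54.6 CPM with NCP26 and 54.5, 52.1 and 55.9 CPM with HFG, and BUB1 at 146, 138 and 149.9 CPM with DMSO, 89.7, 106 and 98.2 CPM with NCP26 and 90.96, 80.7 and 93.01 CPM with HFG, both lower in each treated library. AURKB was at 69.1, 66.5 and 58.8 CPM with DMSO, 65.4, 51.9 and 73.2 CPM with NCP26 and 54.5, 53.1 and 52.9 CPM with HFG, and it passed the test with HFG alone, with a log2 fold change of -0.24 ± 0.095 (adjusted p = 0.0399) against -0.025 ± 0.13 (adjusted p = 0.9) with NCP26.

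The 4 genes that were higher with NCP26 at 6 h were CENPU of the CCAN, NDC80, SKA1, which tracks microtubule ends with NDC80, and CENPE. CENPE stood at 28.8, 31.1 and 33.7 CPM with DMSO, 57.2, 40.4 and 51.7 CPM with NCP26 and 52.2, 41.9 and 43.1 CPM with HFG, without overlap, a log2 fold change of 0.68 ± 0.15 (adjusted p = 0.00382) and 0.57 ± 0.12 (adjusted p = 0.00118). CENPU rose by 0.73 ± 0.16 and 0.48 ± 0.13, SKA1 by 0.49 ± 0.11 and 0.28 ± 0.11, and NDC80 by 0.47 ± 0.12 with NCP26. All 4 were lower than DMSO at 24 h with NCP26. CENPE was also higher than DMSO at 6 h with the related compounds, by 0.70 with NCP22 and 0.63 with halofuginol. In the direct comparison of NCP26 with NCP22 at 6 h, CENPU, NDC80 and SKA1 were called higher and CENPE was not. The GC content of the transcript moved with these early changes. The 46 transcripts had a median GC content of 42.1% against 48.3% over 11523 genes, and CENPE was at 35.05%. Across the 46 genes the 6 h fold changes of NCP26 and the GC content had r = -0.37 (all tested genes -0.37), and for NCP22 at 6 h r = -0.65 (-0.51), while for NCP26 at 24 h it was -0.041. These are correlations across genes of shared libraries and not across independent samples. With an offset for GC content, NCP26 at 6 h gave 19 lower and 3 higher and HFG 29 and 1, TTK changed by -1.25 ± 0.15 (adjusted p = 0.000118) and -1.74 ± 0.15 (adjusted p = 1.0e-07), and CENPE by 0.34 ± 0.16 (adjusted p = 0.113) and 0.17 ± 0.10 (adjusted p = 0.19), no longer past the threshold. With NCP26, NDC80 also lost its call, at 0.25 ± 0.11 (adjusted p = 0.124), and CENPU and SKA1 kept theirs. CENPW (-0.69 ± 0.19, adjusted p = 0.019) and CENPF (-0.30 ± 0.097, adjusted p = 0.037), of the CCAN and attachment lists, were then called lower with NCP26. With HFG all 4 genes called higher lost the call, CENPU at 0.16 ± 0.099 (adjusted p = 0.184), SKA1 at 0.14 ± 0.11 (adjusted p = 0.288), NSL1 at 0.37 ± 0.18 (adjusted p = 0.0986) and CENPE, and the 1 gene then called higher was PMF1. AURKB, called lower with HFG without the offset, lost its call at -0.062 ± 0.080 (adjusted p = 0.539). CENPF was then called lower with HFG, at -0.24 ± 0.078 (adjusted p = 0.0162).

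**Figure D3:**
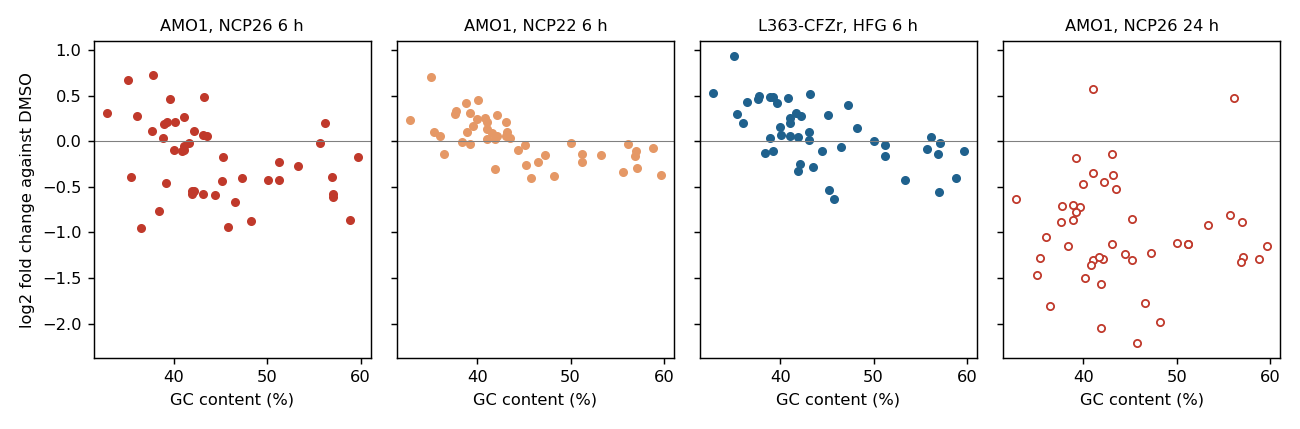
log2 fold change against DMSO of each of the 46 genes plotted against the GC content of its canonical transcript, in 4 comparisons. Genes of low GC content lie higher in the 3 comparisons at 6 h (filled), also with NCP22 in AMO1, and not in that of NCP26 at 24 h (open).

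Whether the effect itself changed between 6 h and 24 h was tested with an interaction term. For NCP26, 36 of 46 genes had a lower effect at 24 h than at 6 h and 0 a higher one, against 10.1% and 7.36% of all genes. CENPE showed the largest difference (-2.15 ± 0.18, adjusted p = 4.2e-07), followed by CENPI (-1.73 ± 0.36), CCNB1 (-1.50 ± 0.15) and CENPU (-1.44 ± 0.20). The attachment and corona list, which includes CENPE, also had 2 genes with a lower effect at 24 h with NCP22 and 1 with halofuginol. The GC offset was not applied to these or the other differences between times, so the part of GC content in them was not tested. The NCP26, HFG, NCP22 and halofuginol libraries of 24 h in AMO1 were in another set than those of 6 h and DMSO. Set and time therefore cannot be told apart in their differences. For HFG, 17 effects were lower at 24 h and 4 higher (background 21% and 18.5%). The 4 higher ones were NSL1 (0.65 ± 0.25), PMF1 (0.54 ± 0.15), BUB1B (0.41 ± 0.14) and BUB3 (0.68 ± 0.083), and CENPE was again the lowest (-1.42 ± 0.18, adjusted p = 3.7e-06). The DMSO cells themselves also differed between the times. In AMO1 DMSO, CENPE was higher at 24 h than at 6 h by 1.13 ± 0.11 (adjusted p = 1.6e-08), CENPF by 0.76 ± 0.09 and KNL1 by 0.64 ± 0.15, and 11 of 46 genes in all were higher and 5 lower (background 23.1% and 23.4%). CENPF, KNL1 and CENPE are 3 of the 4 longest canonical transcripts, and across the 46 genes this change had r = 0.46 with the log2 length (all genes 0.36). The longest, NSL1 (13115 bases), was not called, and BUB3 (7703 bases) was among the lower genes. The lower ones were PMF1 (-0.71 ± 0.11), CENPM (-0.69 ± 0.17), SPC24 (-0.37 ± 0.14), AURKB (-0.32 ± 0.10) and BUB3 (-0.27 ± 0.066). The part of RNA handling in these differences was not tested.

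**Figure D4:**
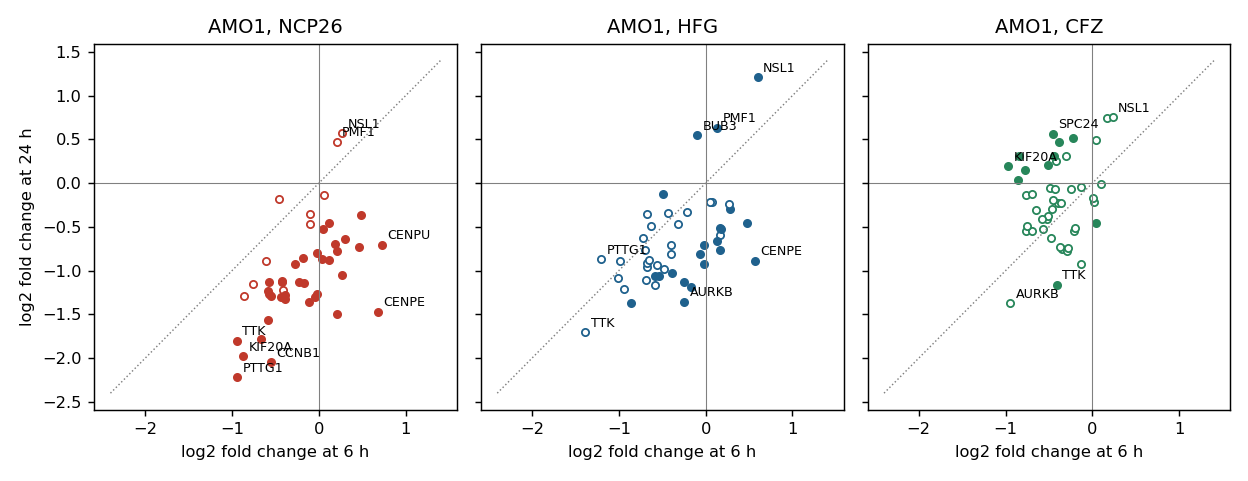
log2 fold change against DMSO at 6 h (x) and 24 h (y) of the 46 genes in AMO1 with NCP26, HFG and CFZ; the dotted line marks equal values and filled points have a difference between the times with an adjusted p under 0.05 (36, 21 and 11 genes). With NCP26 most points lie below the line, and with CFZ the filled points lie mainly above it.

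CFZ blocks the proteasome and not prolyl-tRNA synthetase. At 6 h it lowered 24 of 46 genes and raised 0 (median -0.43 against -0.0062 over all genes, of which 12.8% were lower and 14.1% higher), and at 24 h 15 were lower and 5 higher (median -0.20; 14% and 13.1%). PLK1 stood at 26.5, 24.3 and 18.6 CPM with CFZ at 6 h, below DMSO (33.3 to 47.2 CPM), and at 62.4, 75.6 and 56.8 CPM at 24 h, where it overlapped with DMSO (48.8 to 56.9 CPM). Its log2 fold change went from -0.85 ± 0.16 (adjusted p = 0.000356) to 0.31 ± 0.15 (adjusted p = 0.148), and the difference was 1.13 ± 0.23 (adjusted p = 0.00348). KIF20A (1.15 ± 0.21), SPC24 (1.00 ± 0.19), CDC20 (0.92 ± 0.18) and ESPL1 (0.87 ± 0.22) also had a higher effect at 24 h, and 9 genes did so in all (11 called in either direction, 9 to 17 when 1 library was left out), against 8.05% of all genes. SKA1 and TTK had a lower one (-0.52 ± 0.17 and -0.77 ± 0.21).

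AURKB was lower with CFZ at both times, with 31.6, 33.4 and 35.8 CPM at 6 h and 20.7, 16.9 and 21.01 CPM at 24 h against 58.8 to 69.1 CPM and 45.1 to 55.7 CPM with DMSO, a log2 fold change of -0.95 ± 0.11 (adjusted p = 1.4e-06) and -1.38 ± 0.15 (adjusted p = 0.000449). TTK fell to 13.7, 15.7 and 21.4 CPM at 24 h (-1.16 ± 0.17, adjusted p = 0.0021). CENPW, a small CCAN protein, stood at 4.55, 5.63 and 8.56 CPM against 12.8, 9.92 and 13.2 CPM (-0.92 ± 0.27, adjusted p = 0.038). The 5 genes higher at 24 h were CENPI, SPC24, NSL1, BUB1B and BUB3, by 0.49 to 0.76 on the log2 scale. Without CFZ replicate 2, whose summed level was 2176 CPM against 2510 and 2546, 20 genes were lower and 9 higher, whereas without CFZ replicate 1 or 1 of the DMSO libraries 3 to 6 were lower and 0 to 2 higher. CFZ replicate 1, in the set of the DMSO libraries, gave 17 lower and 7 higher on its own, an alternative chosen after seeing the data in which that library is taken to vary as the DMSO libraries do.

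NCP26 and HFG, at the same dose and times, were compared with each other directly. At 6 h in AMO1, 0 of 46 genes passed the test with edgeR and 0 with DESeq2, 10 had an unadjusted p under 0.05, and 0.26% of all genes were called. The 95% interval of the log2 difference (NCP26 minus HFG) was -0.13 to 0.71 for PTTG1, 0.098 to 0.82 for TTK and -0.12 to 0.37 for CCNB1, which does not show that the compounds act alike. At 24 h, 20 genes were lower with NCP26 than with HFG and 3 higher, and 22.4% and 22.6% of all genes were. PTTG1 (-1.34 ± 0.20, adjusted p = 3.2e-05), CCNB1 (-1.18 ± 0.11, adjusted p = 8.9e-08), KIF20A (-1.08 ± 0.21, adjusted p = 0.000418) and BUB1B (-1.02 ± 0.12, adjusted p = 1.1e-06) were lower by over 1 on the log2 scale. BUB3 (-0.91 ± 0.06), PLK1 (-0.78 ± 0.15) and NSL1 (-0.65 ± 0.15) were also lower. CENPW (1.01 ± 0.29, adjusted p = 0.00922), AURKB (0.54 ± 0.16, adjusted p = 0.00859) and SPC25 of the NDC80 complex (0.51 ± 0.19, adjusted p = 0.0397) were higher with NCP26. Without HFG replicate 3, 15 genes were lower and 0 higher. For TTK the difference was -0.099 ± 0.23 with an interval of -0.59 to 0.39.

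NCP22 and halofuginol at 1 µM moved few of these genes in AMO1. In AMO1 at 24 h, 0 of 46 genes were called with either compound by edgeR or DESeq2, with 8 (NCP22) and 7 (halofuginol) at an unadjusted p under 0.05, and the background was 0% in either direction with NCP22, and 0.11% lower and 0.0731% higher with halofuginol. At 6 h NCP22 gave 3 lower and 3 higher genes (background 6.08% and 7.42%) and halofuginol 0 lower and 1 higher (1.02% and 2.6%). CCNB1 at 24 h stood at 101, 94.2 and 96.3 CPM with NCP22 and 92.6, 94.5 and 94.9 CPM with halofuginol, against 94.97 to 109 CPM with DMSO, and the 95% intervals of the log2 fold change were -0.24 to 0.11 and -0.29 to 0.041. PTTG1 stood at 51.05, 51.4 and 43.2 CPM and 44.1, 46.8 and 47.7 CPM. CENPE at 6 h was the highest change with both, 0.70 ± 0.11 (adjusted p = 0.000394) with NCP22 and 0.63 ± 0.11 (adjusted p = 0.00296) with halofuginol. NCP26 differed from NCP22 at 24 h by -2.11 ± 0.16 (adjusted p = 1.8e-07) for PTTG1 and -1.96 ± 0.097 (adjusted p = 2.2e-09) for CCNB1, and HFG from halofuginol by -1.69 ± 0.18 (adjusted p = 2.6e-07) for TTK and -1.32 ± 0.13 (adjusted p = 9.3e-08) for AURKB. At 6 h NCP26 was lower than NCP22 for 16 genes and higher for 3 (background 12.2% and 12.6%; 10 lower and 0 higher with DESeq2), and HFG was lower than halofuginol for 26 and higher for 1 (26.1% and 25.6%). The effect was lower at 24 h than at 6 h for 3 genes with NCP22 (background 1.67%) and for 1 with halofuginol (0.31%), and higher for 0 with both (1% and 0.1%).

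**Figure D5:**
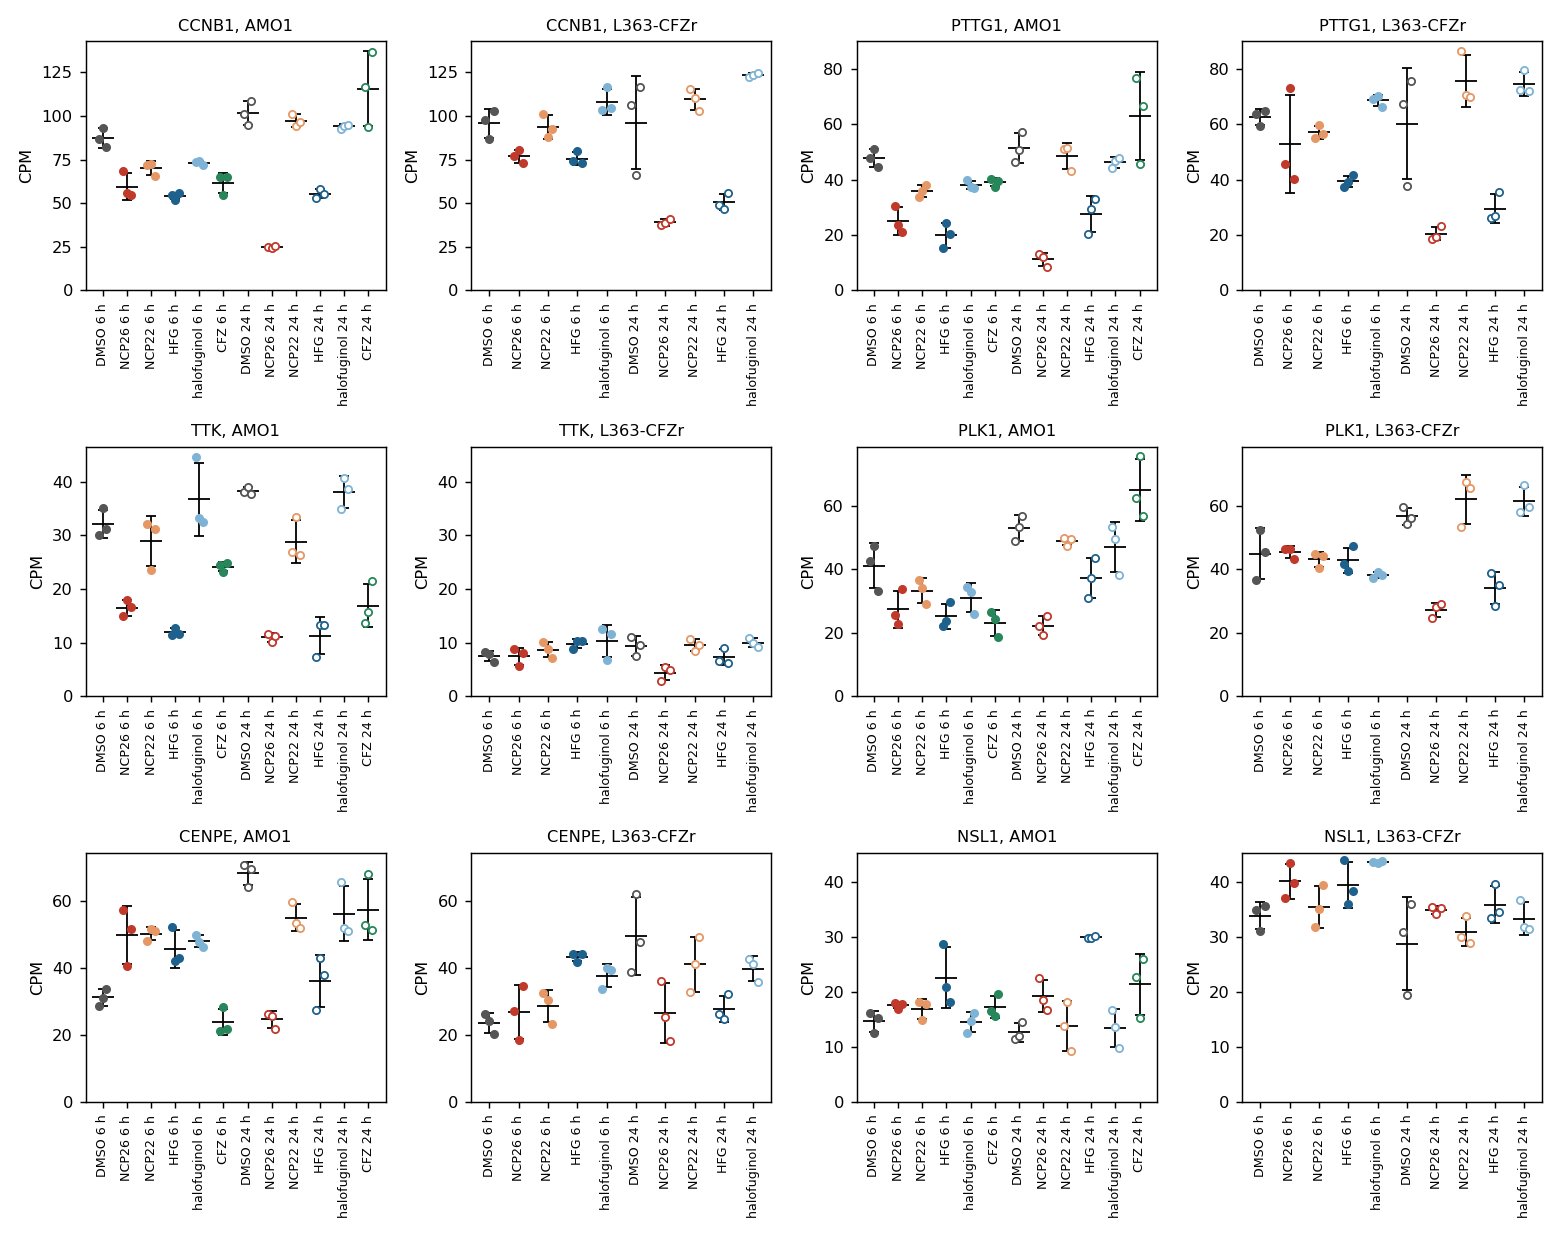
CPM of 6 of the genes in every library (points; filled at 6 h, open at 24 h) with the mean and SD of each group of 3 (black), in AMO1 and L363-CFZr. CCNB1 and PTTG1 are lowest with NCP26 at 24 h in both lines, TTK is low in all L363-CFZr libraries, PLK1 with CFZ is below DMSO at 6 h but not at 24 h, and among the AMO1 groups NSL1 is highest with HFG at 24 h.

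In L363-CFZr cells at 24 h, NCP26 lowered 24 of 45 tested genes and raised 0 (median -0.91 against -0.002 over all genes; background 4.38% and 2.71%). CENPW was not tested there because of low counts. HFG lowered 5 of 46 and raised 0 (median -0.70; background 0.573% and 0.592%). All these libraries belong to 1 set. The counts depended on DMSO replicate 2. Without it NCP26 lowered 38 and HFG 37 of 46 (28.6% and 19.5% of all genes called in either direction), and the medians stayed at -0.90 and -0.70. Leaving out 1 of the other libraries gave 1 to 12 for NCP26 and 0 for HFG. Against NCP22 in the same set NCP26 lowered 38 of 46 (background 17.9%), and against halofuginol HFG lowered 39 (12.3%), with 0 higher in both (16.2% and 9.59%). In the DMSO cells, 4 genes were higher at 24 h than at 6 h and 0 lower (background 9% and 5.81%), namely KNL1, CENPF, CENPE and KIF11, and without replicate 2 of 24 h 18 were higher and 2 lower, whereas 0 were called without any 1 of the 3 libraries of 6 h. These DMSO libraries belong to different sets at the 2 times, so that set and time cannot be told apart.

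KIF20A led the fall in L363-CFZr, with 33.8, 31.4 and 40.4 CPM with DMSO, 12.7, 11.04 and 10.8 CPM with NCP26 and 21.5, 16.5 and 13.8 CPM with HFG, and a log2 fold change of -1.61 ± 0.17 (adjusted p = 0.00263) with NCP26. PTTG1 stood at 67.2, 37.8 and 75.6 CPM with DMSO, 18.7, 19.4 and 23.1 CPM with NCP26 and 26.1, 26.9 and 35.6 CPM with HFG, and CCNB1 at 106, 66.2 and 116 CPM with DMSO, 37.4, 38.6 and 41.1 CPM with NCP26 and 48.95, 46.8 and 55.7 CPM with HFG. In both, DMSO replicate 2 was the lowest DMSO library and still above every treated one. PLK1 was at 59.5, 54.2 and 56.3 CPM with DMSO, 24.7, 28.1 and 29.01 CPM with NCP26 and 38.7, 28.6 and 34.9 CPM with HFG (-1.04 ± 0.13, adjusted p = 0.00556 with NCP26). CENPI fell from 16.3, 25.4 and 17.6 CPM to 5.07, 6.48 and 7.82 CPM with NCP26 (-1.58 ± 0.26, adjusted p = 0.0127). With HFG the 5 called genes were ZWINT (-1.23 ± 0.21), BUB1 (-0.73 ± 0.12), TPX2 (-0.73 ± 0.12), KIF11 (-0.67 ± 0.12) and ESPL1 (-1.29 ± 0.22). ESPL1 stood at 35.6, 62.4 and 46.3 CPM with DMSO and 19.2, 18.6 and 20.8 CPM with HFG, BUB1 at 130.4, 149.5 and 155 CPM and 86.3, 87.1 and 88.6 CPM, and ZWINT, which links KNL1 to the checkpoint, at 41, 28.4 and 47.2 CPM and 18.2, 14.8 and 17.1 CPM. NCP26 was lower than HFG for 6 of 45 genes and higher for 0 (background 7.43% and 5.52%), among them PTTG1 (-0.53 ± 0.16, adjusted p = 0.0411) and CCNB1 (-0.36 ± 0.10, adjusted p = 0.0347). This count was 1 with DESeq2.

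At 6 h in L363-CFZr, NCP26 gave 2 lower and 4 higher genes (median 0.032; background 8.99% and 9.81%), 6 and 6 without NCP26 replicate 2, and 0 without DMSO replicate 1 or 3. The higher ones were NDC80, its partner NUF2, SKA1 and CCNB2, and the lower ones ZWINT (-0.50 ± 0.13, adjusted p = 0.0189) and BUB1 (-0.32 ± 0.10, adjusted p = 0.0491). NDC80 stood at 22.7, 30.7 and 25.4 CPM with DMSO and 36.5, 41.1 and 34.1 CPM with NCP26, NUF2 at 20.4, 24.2 and 24.3 CPM and 34.1, 32.7 and 31.1 CPM, and SKA1 at 18.1, 15 and 15.2 CPM and 20.5, 24.5 and 25.6 CPM. With the GC offset 4 genes were lower and 0 higher. HFG gave 7 lower and 12 higher (background 27.5% and 26.9%), with CENPE from 26.3, 24.2 and 20.4 CPM to 44.2, 41.9 and 44.1 CPM and PTTG1 from 63.5, 59.3 and 64.9 CPM to 37.4, 39.3 and 41.5 CPM. These fold changes had r = -0.58 with GC content across the 46 genes, the set of the HFG libraries differed from that of DMSO, and with the GC offset the counts turned to 8 lower and 2 higher. Halofuginol at 6 h, in the same position, gave 1 lower and 11 higher genes (background 12.2% and 13.6%) and 0 with the offset or with a term for the set. NCP22 gave 0 called genes at 6 h and at 24 h with edgeR and DESeq2 (4 and 0 at an unadjusted p under 0.05; background 0%), and halofuginol 0 at 24 h with both (1 at an unadjusted p under 0.05; background 0%). NCP26 against HFG gave 0 called genes at 6 h with edgeR and DESeq2 (4 at an unadjusted p under 0.05; background 0%), across 2 sets. NCP26 was lower than NCP22 for 4 genes and higher for 2 at 6 h (background 10.4% and 9.96%), and HFG was lower than halofuginol for 8 and higher for 5 (24.2% and 23.1%).

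The interaction of time was lower at 24 h for 6 of 46 genes with NCP26 (0.564% of all genes) and for 23 with HFG (7.55%), and higher for 0 with both (0.127% and 4.75%). With NCP26 it was 26 without DMSO replicate 2 of 24 h and 1 to 5 without 1 of the other libraries. With HFG it was 33 without that library and 7 to 19 without 1 of the others. KIF20A (-1.63 ± 0.19, adjusted p = 0.00498) and PLK1 (-1.07 ± 0.19, adjusted p = 0.0213) were among the 6. The difference between the lines was tested too. The NCP26 effect differed for 2 genes at 6 h, KIF20A (0.88 ± 0.18, adjusted p = 0.0128) and CCNB2 (0.83 ± 0.16, adjusted p = 0.00793). Both effects were higher in L363-CFZr, where CCNB2 was itself called higher than DMSO. At 24 h the effect differed for 1 gene, TPX2 (0.69 ± 0.16, adjusted p = 0.0238), also higher in L363-CFZr. Of all genes, 1.96% and 2.97% were called higher. The count at 24 h was 0 without AMO1 DMSO replicate 1, 2 or 3, AMO1 NCP26 replicate 1 or 3 or L363-CFZr NCP26 replicate 3, and 10 (3 lower, 7 higher) without L363-CFZr DMSO replicate 2. The HFG effect was higher in L363-CFZr for 19 genes at 6 h (11.3%), led by TTK (1.82 ± 0.24, adjusted p = 1.1e-05) and KIF20A (1.14 ± 0.18, adjusted p = 8.1e-05), where set and treatment cannot be told apart in L363-CFZr. It was higher for 12 without L363-CFZr DMSO replicate 1. At 24 h it was higher for TTK (1.32 ± 0.31, adjusted p = 0.0114) and AURKA (0.69 ± 0.20, adjusted p = 0.0317) and lower for NSL1 (-0.93 ± 0.27, adjusted p = 0.0306), against 8.06% higher and 8.82% lower. This count was 8 (4 lower, 4 higher) without L363-CFZr DMSO replicate 2 and 1 to 4 without 1 of the other libraries, down to 1 without AMO1 DMSO replicate 2, AMO1 HFG replicate 1 or 2 or L363-CFZr HFG replicate 3. TTK in L363-CFZr stood at 11.1, 7.48 and 9.55 CPM with DMSO at 24 h and 6.62, 8.95 and 6.26 CPM with HFG.

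The fold changes were also set beside the promoter letters. With NCP26 at 24 h in AMO1 the median log2 fold change was -1.13 in the 21 genes with TTTGAA and -0.92 in the 17 without, and -1.14 in the 28 with CCAAT and -0.99 in the 10 without. The 2 largest falls, PTTG1 and CCNB1, were in promoters with CCAAT pairs and no TTTGAA. At 6 h the medians were -0.39 with CCAAT and 0.14 without for NCP26, and -0.52 and 0.092 for HFG. The median with CCAAT was also the lower one at 6 h in AMO1 with the other compounds. It was -0.026 against 0.19 for NCP22, -0.005 against 0.16 for halofuginol and -0.47 against -0.27 for CFZ. The part of GC content in this gap was not tested. Apart from BUB1B and KIF2C, the 10 genes without CCAAT belong to the CCAN, outer kinetochore and attachment lists. Promoter letters therefore go with role in this contrast. These lists also hold promoters with CCAAT, such as those of CENPA and CENPF, but the letters were not compared within a role. The medians are descriptions of small lists, with no test.

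Other mitotic genes, in 8 lists of 106 genes, were counted in the same way. Of all genes tested in AMO1 at 24 h, 30.9% were lower and 29.8% higher with NCP26, and 30.5% and 28.5% with HFG. All 21 other spindle and cytokinesis genes were lower with NCP26 and with HFG (medians -1.04 and -0.83), as were 11 and 8 of 11 other mitotic entry regulators and 7 of 8 condensin subunits with each. Of 17 APC/C subunits and E2 enzymes 6 were lower and 4 higher with NCP26 and 4 and 6 with HFG, and of 12 cohesin genes 4 were lower and 5 higher with NCP26 and 5 and 1 with HFG. The other centromere, kinetochore and MuvB lists are counted here only within the 106. They hold HJURP and MYBL2, picked as the largest called changes of the 106 at 24 h. HJURP, the chaperone that deposits CENPA, changed by -2.23 ± 0.099 with NCP26 and -2.20 ± 0.10 with HFG. MYBL2, a transcription factor that acts with the MuvB complex on late cell cycle genes, changed by -2.08 ± 0.063 and -1.76 ± 0.065. At 6 h the largest called changes were those of TACC3 and CKS2. TACC3, a spindle protein bound by AURKA, changed by -1.36 ± 0.12 and -1.36 ± 0.12. CKS2, a subunit of CDK complexes, changed by -1.35 ± 0.13 and -1.40 ± 0.12. Over the 106 genes, 71 were lower and 11 higher with NCP26 at 24 h and 64 and 8 with HFG, 16 and 2 with CFZ, and in L363-CFZr 31 and 1 with NCP26 and 9 and 0 with HFG. Of all genes tested at 24 h, 14% were lower and 13.1% higher with CFZ, and in L363-CFZr 4.38% and 2.71% with NCP26 and 0.573% and 0.592% with HFG.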

How the data were processed

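RNA from AMO1 and L363-CFZr cells was sequenced in 66 libraries. The authors quantified reads with kallisto against human transcripts and deposited whole-number counts per Ensembl gene (20167 genes). The sources used here do not give the kallisto version, the annotation, the use of strand or the step that made the counts whole. The labels name hg19 and the study's methods GRCh38, so all gene positions here come from GENCODE v44 (GRCh38), matched by gene ID (19299 of 20167 matched), and promoters from RefSeq (GRCh38.p14). The deposited table also maps IDs to symbols.

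Groups came from the sample titles. The 46 genes, their roles and the 8 lists of other mitotic genes were chosen with earlier results of these data known. Each of 45 comparisons was fitted over all genes with edgeR 4.0.16 (R 4.3.3; TMM normalisation, filterByExpr set to 10 counts per gene and 15 in total, quasi-likelihood F test, Benjamini-Hochberg adjustment over all genes tested, threshold 0.05), on the groups compared only. SEs were derived from the log2 fold change and its F statistic (absolute value over root F), and 95% intervals used the total degrees of freedom of the fit. CPM levels used 1 TMM normalisation over all 66 libraries. Differences between times or lines were interaction terms over 12 libraries. A library of 1666325 to 6596543 counts limits the precision of low transcripts, and counts of reads are not independent molecules. The script was tested on simulated counts. Alternatives were DESeq2 1.42.0 (size factors, and its Wald test), no filter, a replicate block, an offset for GC content (lowess span 0.3), all groups of a line in 1 fit, with and without a term for the library set, and each replicate left out. The GC offset and the fits of all groups of a line covered only the 18 comparisons against DMSO. Per-library values are given for 12 chosen genes and for the 3 genes with the largest called change without overlap in each NCP26, HFG or CFZ comparison, and genes called against the majority are named where there are 5 or fewer.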

Additional observations from a re-analysis of the deposited data

Results flagged for a closer look

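Differences between the effects of a treatment at 24 h and at 6 h, or in the 2 lines, were tested directly with interaction terms, and those with called genes are listed here. In AMO1 the effect at 24 h differed from that at 6 h for 36 of the 46 genes with NCP26, all lower at 24 h (10.1% of all genes were lower and 7.36% higher). It differed for 21 with HFG (17 lower, 4 higher, against 21% and 18.5%), for 11 with CFZ (2 lower, 9 higher, against 11.6% and 8.05%), for 3 with NCP22 (all lower, against 1.67%) and for 1 with halofuginol (lower, against 0.31%). In L363-CFZr it differed for 6 genes with NCP26 (0.564% of all genes lower) and for 23 with HFG (7.55%), all lower at 24 h. Without DMSO replicate 2 of 24 h these L363-CFZr counts were 26 and 33. The effect of NCP26 differed between the lines for 2 genes at 6 h and for 1 at 24 h, all higher in L363-CFZr (1.96% and 2.97% of all genes higher). That of HFG differed for 19 at 6 h, all higher (11.3%), and for 3 at 24 h, 2 higher and 1 lower (8.06% and 8.82%). Time goes with RNA storage and, in most of these comparisons, with the library set, and their part in the differences, and that of GC content, was not tested. In AMO1 the effects of 6 h are within 1 set, and those of 24 h rest on DMSO libraries of another set.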

How the results depend on the processing

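The counts for NCP26 and HFG in AMO1 were stable, with 43 to 44 (24 h, NCP26), 37 to 38 (24 h, HFG), 16 to 21 (6 h, NCP26) and 23 to 28 (6 h, HFG) genes called when 1 library was left out. Over all 45 comparisons the count moved by more than 1.5 times for 13 with the DESeq2 Wald test, 4 with no filter on low counts, 1 with DESeq2 size factors and 5 with the replicate block. With the Wald test it was 2 for NCP22 and 0 for halofuginol in AMO1 at 6 h, 0 for the time difference of halofuginol, 10 for AMO1 DMSO between the times and 10 for NCP26 against NCP22 at 6 h. In L363-CFZr it was 2 for NCP26 at 6 h, 17 for HFG at 24 h, 16 and 1 for the time differences of NCP26 and halofuginol, 1 for NCP26 against HFG at 24 h, 3 for NCP26 against NCP22 and 8 for HFG against halofuginol at 6 h, and 12 for the HFG effect between the lines at 6 h. With no filter it was 1 for NCP22 at 24 h and 2 for halofuginol at 6 h in AMO1, 14 for the time difference of HFG in L363-CFZr and 5 for the NCP26 effect between the lines at 6 h. With DESeq2 size factors HFG in L363-CFZr at 24 h gave 3. With the GC offset AMO1 gave 3 for NCP22 and 2 for halofuginol at 6 h, and L363-CFZr 4 for NCP26, 10 for HFG and 0 for halofuginol at 6 h. The first of these 3 changed from mostly higher to all lower genes and HFG from mostly higher to mostly lower. The median log2 fold change turned to -0.064 (AMO1 NCP22, 6 h), -0.10 (L363-CFZr NCP26, 6 h) and -0.068 (L363-CFZr HFG, 6 h), and CDK1 with HFG in L363-CFZr at 6 h to -0.23 (adjusted p = 0.0795, edgeR). With all groups of a line in 1 fit, NCP22 in AMO1 at 6 h gave 3, and L363-CFZr gave 10 for NCP26 at 6 h, 32 for HFG at 24 h and 2 for halofuginol at 6 h. A term for the library set gave 3, 10 and 32 for the first 3 of these, 0 for halofuginol and 4 for HFG at 6 h in L363-CFZr, and turned the median for halofuginol in AMO1 at 24 h to 0.0090. The cause was not tested. An offset for GC content also takes out treatment effects that follow GC content. In each line the set term rests on the only group that spans 2 sets. This group was CFZ at 24 h in AMO1 and NCP22 at 6 h in L363-CFZr.

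The replicate numbers did not pair the samples. The correlation of same-numbered deviations ran from -0.36 to 0.33, and in 0 of 32 comparisons was it over 0.1 for every number or did every sample correlate best with its own number. With the replicate block 13 genes were called for CFZ in AMO1 at 24 h, and in L363-CFZr 0 for NCP26 at 6 h, 3 for NCP26 and 0 for HFG at 24 h and 1 for the time difference of NCP26. The block moved no other count by over 1.5 times.

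Leaving out 1 library gave, in AMO1, 3 to 29 for CFZ at 24 h, 1 to 12 for NCP22 and 1 to 7 for halofuginol at 6 h, 9 to 17, 1 to 5 and 1 to 3 for the time differences of CFZ, NCP22 and halofuginol, 15 to 23 for NCP26 against HFG at 24 h and 8 to 19 for NCP26 against NCP22 at 6 h. In L363-CFZr it gave 0 to 12 for NCP26 at 6 h, 1 to 38 for NCP26 and 0 to 37 for HFG at 24 h, 1 to 26, 7 to 33 and 0 to 3 for the time differences of NCP26, HFG and halofuginol, 0 to 20 for DMSO between the times, 0 to 1 and 1 to 5 for NCP26 against HFG at 6 h and 24 h, and 1 to 10 for NCP26 against NCP22 at 6 h, where the 1 gene left without NCP22 replicate 3 was higher. Between the lines it gave 0 to 10 for NCP26 at 24 h, 12 to 21 for HFG at 6 h and 1 to 8 for HFG at 24 h. The median ran from -0.012 (without DMSO replicate 2) to 0.059 for NCP22 in AMO1 at 6 h, and from -0.065 to 0.015 (without NCP26 replicate 3) for NCP26 against HFG in L363-CFZr at 6 h.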
